A study of Mus musculus with 12 samples.

Results

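The histone marks around 10 mouse genes of cell-cycle arrest and senescence were described in mesenchymal stem cells (MSCs) kept at low or atmospheric oxygen. The genes were the CDK inhibitors Cdkn1a, Cdkn1b, Cdkn1c, Cdkn2a, Cdkn2b and Cdkn2c, the tumour suppressor Trp53, its inhibitor Mdm2, and the stress genes Gadd45a and Gadd45b. They were listed by name for their place in growth arrest and p53 signalling, and are 10 of the 21938 protein-coding genes of the annotation. For each, all peaks within the gene body and 20000 bp on each side were read, which gave 30 of the 22555 distinct segments that the peak lists hold. MSCs are stromal cells of bone that can form bone, cartilage and fat. They came from wild-type male C57BL6/N mice aged 3-5 months, and were sorted as CD45-/Ter-119-/Sca-1+/CD140a+ cells. According to the study's methods, all cells grew in low oxygen until the sort and were then divided and kept for a week at either oxygen level. They were kept at 5% CO2 and 37°C in 2% oxygen (hypoxia) or 21% oxygen (normoxia). Chromatin immunoprecipitation with sequencing was made for H3K27ac, an acetylation found at active promoters and enhancers, and for H3K4me3, a methylation found mainly at promoters, with 2 libraries in each of 6 groups, the marks and the input control at each oxygen level, or 12 in all. The study's figure legends give 2 biologically independent experiments for these data. Whether the 2 libraries of a group came from separate animals is not stated in the labels.

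Each mark at each oxygen level gave a single peak list made from both of its libraries, 4 lists in all. The difference between oxygen levels therefore has no replicate check, no test was possible, and read depth per library was not analysed here. A peak is a stretch that the authors' model called as carrying the mark, and the score is the authors' value for it, with no stated definition. Scores ran from 50 to 160, and the remaining peaks stood at 1000. The H3K27ac lists held 15203 peaks in hypoxia and 14832 in normoxia, and the H3K4me3 lists held 14606 and 14603. The sort was checked against markers at transcription starts. H3K27ac was called at 9 of 9 gate or stromal genes, such as Pdgfra and Prrx1, and at 0 of 7 blood cell genes and 0 of 3 endothelial genes. H3K4me3 was called at 8 of the 9 stromal genes, all but Ly6a, which encodes the gate marker Sca-1, and at 1 of 3 endothelial genes (Kdr). A hypoxia-only H3K27ac peak held the start of the stromal gene Thy1 (score 55), and another lay 4620 bp from the start of the B cell gene Cd79a (score 57). In normoxia, H3K27ac was still called within 1000 bp of a start at all 9 stromal genes, Thy1 among them.

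CDK inhibitors stop the cell cycle by binding the kinases that drive it. The Cip/Kip proteins are encoded by Cdkn1a (p21), Cdkn1b (p27) and Cdkn1c (p57), and the Ink4 proteins by Cdkn2a (p16), Cdkn2b (p15) and Cdkn2c (p18). The transcription factor p53, encoded by Trp53, responds to DNA damage and activates Cdkn1a, Gadd45a and Mdm2, and Mdm2 in turn marks p53 for degradation. Cdkn2a has a further start that yields Arf, an inhibitor of Mdm2. Cultured mouse cells kept at atmospheric oxygen are known to enter senescence, in which these genes take part, and the comparison of oxygen levels addresses how their chromatin stood under each.

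The upstream sequences below show the promoters on which the results turn, read 5′ to 3′ on the strand of the gene from RefSeq (GRCm38.p6). Of the 10 genes, 9 had at least 1 promoter in the RefSeq table, 12 promoters in all, and Cdkn1c is named only. Only stretches free of annotated exons are printed. Capitals mark the GC box GGGCGG, the cAMP response core TGACGT, each on either strand, and a match to the p53 response element. The Arf start carried both marks and stood at the top score of 1000 in hypoxia but not in normoxia, and the p16 start of the same gene carried H3K4me3 alone. Cdkn2b lies next to them, Cdkn1a holds the p53 match, and Cdkn1b had a lower score in normoxia.
Cdkn2a, Arf start, chr4:89294654-89294869, minus strand: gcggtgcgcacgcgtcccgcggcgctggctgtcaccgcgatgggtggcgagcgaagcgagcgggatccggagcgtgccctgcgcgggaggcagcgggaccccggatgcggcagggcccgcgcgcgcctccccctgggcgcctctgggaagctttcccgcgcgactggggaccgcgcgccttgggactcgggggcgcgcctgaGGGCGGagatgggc
Cdkn2a, p16 start, chr4:89282193-89282442, minus strand: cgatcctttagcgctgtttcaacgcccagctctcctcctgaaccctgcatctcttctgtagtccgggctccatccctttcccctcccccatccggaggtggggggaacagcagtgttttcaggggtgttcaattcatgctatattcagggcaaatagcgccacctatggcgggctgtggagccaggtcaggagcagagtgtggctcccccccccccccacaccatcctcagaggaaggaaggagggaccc
Cdkn2b, chr4:89311040-89311282, minus strand: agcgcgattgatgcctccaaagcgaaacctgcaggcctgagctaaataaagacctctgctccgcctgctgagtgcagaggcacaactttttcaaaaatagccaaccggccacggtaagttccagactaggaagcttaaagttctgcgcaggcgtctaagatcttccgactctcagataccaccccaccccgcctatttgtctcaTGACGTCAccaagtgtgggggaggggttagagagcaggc
Cdkn1a, distal start, chr17:29090729-29090978, plus strand: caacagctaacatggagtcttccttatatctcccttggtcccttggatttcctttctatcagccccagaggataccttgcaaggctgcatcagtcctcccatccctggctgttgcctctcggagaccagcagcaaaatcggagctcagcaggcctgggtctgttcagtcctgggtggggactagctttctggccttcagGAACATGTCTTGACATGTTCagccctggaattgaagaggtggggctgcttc
Cdkn1b, chr6:134920151-134920400, plus strand: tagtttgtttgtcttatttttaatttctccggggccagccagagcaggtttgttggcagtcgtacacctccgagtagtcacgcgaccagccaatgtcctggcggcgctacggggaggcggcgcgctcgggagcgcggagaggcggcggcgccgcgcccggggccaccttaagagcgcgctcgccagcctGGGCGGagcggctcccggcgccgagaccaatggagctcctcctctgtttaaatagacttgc
The ratio of observed to expected CpG over the whole promoter (250 bases before to 50 after the start) was 1.04 at the Arf start, 0.442 at the p16 start and 0.722 at Cdkn2b. It was 1.04 at Cdkn1b and 0.0892 at the distal Cdkn1a start, against a median of 0.384 over 32851 promoters. The Arf and Cdkn1b promoters were thus among the CpG-rich ones, at percentiles 95.9 and 96, and the distal Cdkn1a promoter was CpG-poor, at percentile 11.8. The GC box was held by 35.7% of all promoters and the cAMP response core by 7.51%. In Cdkn2b the core was read on both strands of the same 8 bases.

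The overall pattern was the same at both oxygen levels. H3K4me3 was called within 1000 bp of a start in 10 of 10 genes, where 58.9% of all coding genes had it (95% Wilson interval of the share of members 72.2 to 100%). H3K27ac was called there in 9 of 10 genes, where 37.6% of all coding genes had it (59.6 to 98.2%). These counts were equal in hypoxia and normoxia. Cdkn1c was the gene without H3K27ac, 1 of 10 members against 38.1% of all coding genes with H3K4me3 at a start. The interval for this 1 of 10, 1.79 to 40.4%, held that background. Intervals cover counting error only, and members were named for their function and not sampled. No H3K4me3 peak near the members was called at a single oxygen level, and the whole lists held 9 such peaks.

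The 30 segments fell into 4 classes. Both marks were called at both oxygen levels in 13 segments of 2000 to 8000 bp. H3K27ac alone was called at both levels in 10 segments of 1500 to 10000 bp, and H3K4me3 alone in 5 segments of 1500 to 3500 bp. The remaining 2 segments, of 1500 bp each, carried H3K27ac in hypoxia only and no H3K4me3. The lists of H3K27ac thus held 25 peaks near the members in hypoxia and 23 in normoxia, and the H3K4me3 lists held 18 each. Cdkn2a and Cdkn2b are neighbours and share 3 of the segments, so they are not independent.

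**Figure D1:**
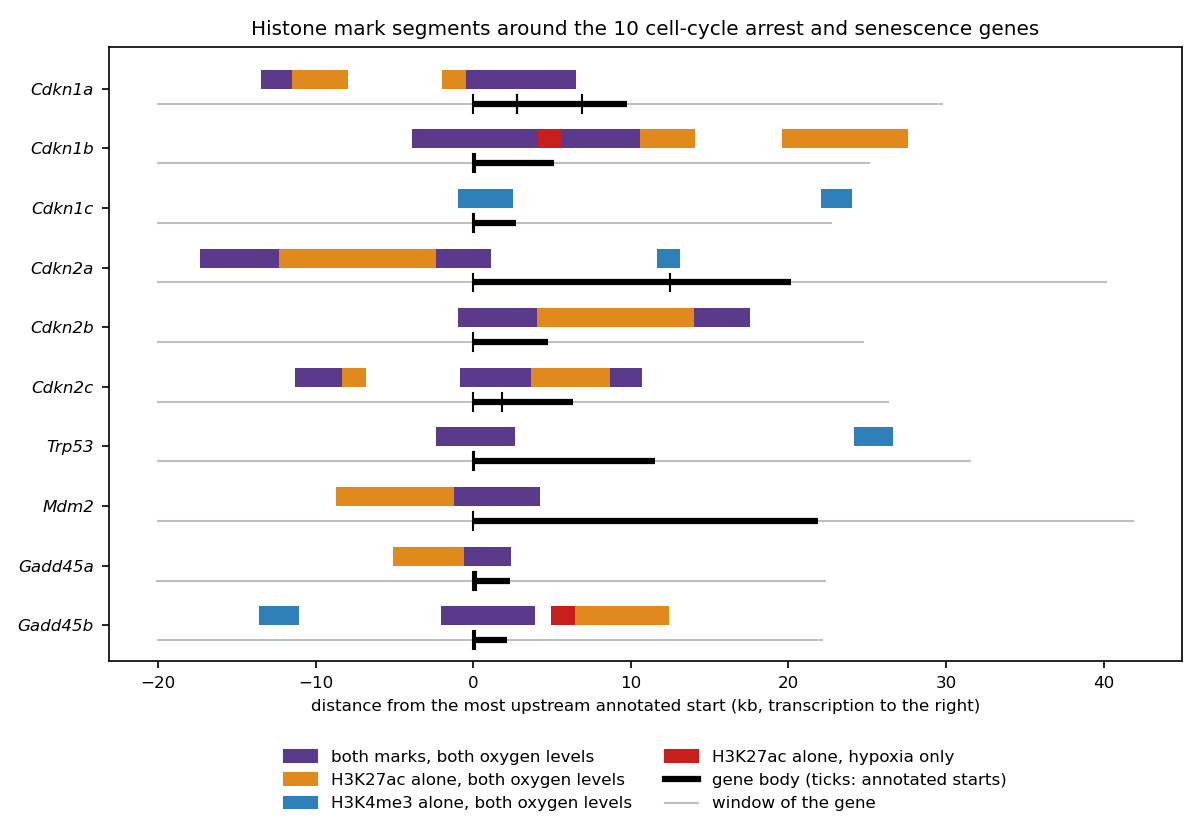
Segments called near each of the 10 genes, drawn to scale as distance in kb from the most upstream annotated start, with transcription to the right. Colours give the marks called, thick black bars the gene body with ticks at annotated starts, and grey lines the window; the red hypoxia-only segments of 1500 bp lie downstream of the Cdkn1b and Gadd45b starts.

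Among the Cip/Kip genes, Cdkn1a lies on the plus strand at chr17:29090976-29100727. A segment of both marks, 7000 bp wide (chr17:29090501-29097500), held 3 of its 4 annotated starts and the start of AC167363.2. The score of H3K27ac there was 129 in hypoxia and 129 in normoxia, and that of H3K4me3 was 129 in each. The H3K4me3 peak was wider than 98.7% of its list. Upstream, a 1500 bp segment of H3K27ac alone (chr17:29089001-29090500) touched it and scored 58 in hypoxia and 51 in normoxia. Farther upstream, both marks were called at the start of Trp53cor1, a long noncoding RNA (chr17:29077501-29079500), with H3K27ac at 129 in each condition. The adjoining segment of H3K27ac alone scored 83 in hypoxia and 70 in normoxia. The segments of both marks thus had the same score at both oxygen levels, and those of H3K27ac alone scored lower in normoxia. Segments of the same chromosome often shared a value, as these did at 129. An equal score therefore does not show an equal level of either mark, here or at the genes below.

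Cdkn1b (plus strand, chr6:134920401-134925513) had the widest H3K27ac cover of the 10 genes, with 52.1% of its window covered in hypoxia and 48.8% in normoxia. Part of this cover lay in segments within the neighbouring gene Lockd. Its starts lay in an 8000 bp segment of both marks (chr6:134916501-134924500), where H3K27ac scored 138 in hypoxia and 121 in normoxia. H3K4me3 scored 135 in each, in a peak wider than 99.3% of the list. Directly after it came the hypoxia-only segment (chr6:134924501-134926000), with a score of 51. Of its bases, 1013 lay in the last exon of the gene and 0 were coding. It touched a segment of both marks on each side, so it was the stretch between 2 shared peaks that was left without a call in normoxia. The segment that follows (chr6:134926001-134931000) held the starts of Lockd and Gm44238 and scored 138 in each condition. Within Lockd, a long noncoding RNA gene downstream of Cdkn1b, a 3500 bp segment of H3K27ac alone scored 85 in hypoxia and 63 in normoxia. An 8000 bp segment beyond it scored 131 in each.

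Cdkn1c (minus strand, chr7:143458339-143461050), an imprinted gene, had no H3K27ac peak in its window at either oxygen level. H3K4me3 was called over both of its starts (chr7:143458501-143462000) with a score of 142 in each condition. That segment also held the start of Gm44732. The other H3K4me3 peak of the window (chr7:143437001-143439000) held no annotated start and scored 131 in each. The list gives no count for the stretch, so a level of H3K27ac below the calling limit was not distinguished from none.

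Among the Ink4 genes, the adjoining loci Cdkn2b and Cdkn2a (minus strand, chr4:89306299-89311039 and chr4:89274471-89294653) formed a continuous acetylated block. From the Cdkn2b start to the Arf start, 3 touching segments covered 18500 bp. The segment at the Cdkn2b start (chr4:89307001-89312000) scored 1000 for H3K27ac in each condition and 125 for H3K4me3. The 10000 bp segment between the genes carried H3K27ac alone, with 75 in hypoxia and 71 in normoxia. At the Arf start (chr4:89293501-89297000), H3K27ac scored 1000 in hypoxia and 128 in normoxia, while H3K4me3 scored 125 in each. On chromosome 4, 39.5% of hypoxia and 32.1% of normoxia H3K27ac peaks stood at 1000, against 0% on chromosome 10, so the step is between a common top value and the next range of the same chromosome.

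The starts of Cdkn2a differed from each other. The p16 start, farther into the gene, lay in a 1500 bp segment of H3K4me3 alone (chr4:89281501-89283000). Its H3K4me3 score was 74 in each condition, the lowest of the 18 H3K4me3 peaks near the members. No H3K27ac was called over it at either oxygen level. Both starts therefore carried H3K4me3, and the Arf start alone carried H3K27ac, also in both lists. The promoter sequences printed above differ likewise in CpG ratio (1.04 at Arf and 0.442 at p16), and no relation between the 2 measures was tested.

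Cdkn2c (minus strand, chr4:109660876-109667189) had H3K27ac at 1000 and H3K4me3 at 126 in each condition in the segment of its starts (chr4:109663501-109668000). The same scores were found at the start of the neighbour Faf1 and at the start of 9630013D21Rik. Between these lay segments of H3K27ac alone. That in the gene body (chr4:109658501-109663500) scored 60 in hypoxia and 52 in normoxia. That beside the Faf1 start (chr4:109674001-109675500) scored 65 in hypoxia and 91 in normoxia, and was the only shared peak near the members with the higher score in normoxia.

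Trp53 (plus strand, chr11:69580359-69591873) had the smallest H3K27ac cover of the 9 acetylated genes, with 9.71% of its window covered at each oxygen level. A 5000 bp segment of both marks (chr11:69578001-69583000) held its starts and that of Wrap53, which runs in the opposite direction. H3K27ac scored 133 and H3K4me3 135 in each condition. A further peak of H3K4me3 alone held the start of Atp1b2. Mdm2 (minus strand, chr10:117688875-117710758) had both marks at its start (chr10:117706501-117712000), with H3K27ac at 134 and H3K4me3 at 1000 in each condition. A 7500 bp segment of H3K27ac alone touched it upstream and also scored 134 in each. No score of H3K27ac at Trp53 or Mdm2 differed between the lists, which does not show that the level was unchanged.

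Gadd45a and Gadd45b encode stress-induced proteins that act in DNA repair and growth arrest. At the starts of Gadd45a (minus strand, chr6:67035096-67037457), H3K27ac scored 127 in hypoxia and 121 in normoxia, with H3K4me3 at 126 in each. The segment (chr6:67035001-67038000) also held the start of E230016M11Rik. The adjoining 4500 bp of H3K27ac alone scored 62 in each. At the starts of Gadd45b (plus strand, chr10:80930073-80932204), both marks were called over 6000 bp (chr10:80928001-80934000), with H3K27ac at 130 and H3K4me3 at 134 in each condition. Past a gap of 1000 bp followed the hypoxia-only segment (chr10:80935001-80936500), with a score of 60. It lay 4840 bp downstream of the nearest start and in no annotated gene body, and its GC content was 54.8%. It touched a shared segment of H3K27ac alone that scored 82 in hypoxia and 66 in normoxia. A peak of H3K4me3 alone held the start of Lmnb2. The central 200 bases of the Gadd45b hypoxia-only peak are shown because this stretch differed between the lists outside any exon.
Gadd45b hypoxia-only H3K27ac peak, chr10:80935651-80935850, plus strand: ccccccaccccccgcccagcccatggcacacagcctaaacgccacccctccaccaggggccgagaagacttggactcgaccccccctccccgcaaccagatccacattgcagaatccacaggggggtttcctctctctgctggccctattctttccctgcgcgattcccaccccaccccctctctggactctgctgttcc

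In all, 2 of 10 members (Cdkn1b and Gadd45b) had a hypoxia-only H3K27ac peak in the window, where 4.7% of all coding genes had such a peak (interval of the share of members 5.67 to 51%). Among genes with H3K27ac in the window the values were 2 of 9 members (22.2%) and 8.55% of coding genes. The interval for 2 of 9 was 6.32 to 54.7%, which holds the background. A normoxia-only peak was found at 0 of 10 members, which allows a share of up to 30%, where 1.15% of coding genes had it. Over peaks, 2 of the 25 hypoxia peaks near members were hypoxia-only (8%, interval 2.22 to 25%), where 3.87% of the whole list were. The Cdkn1b peak was among the lowest of the 589 hypoxia-only peaks, 5.94% of which scored lower, while the Gadd45b peak was near their middle (55.7%). Both were narrower than the median hypoxia-only peak of 3500 bp. Neither was counted when a hypoxia-only peak had to lie over 1000 bp from any normoxia peak, or when the lowest-scoring 25% of peaks were left out.

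Scores at the 23 shared H3K27ac peaks were compared at identical intervals. The score was lower in normoxia in 9 peaks, equal in 13 and higher in 1, or 39.1%, 56.5% and 4.35%. Over all 14614 shared peaks these shares were 39.9%, 43.6% and 16.6%. Several of the equal scores were values repeated within a chromosome, such as 129, 134 and 1000, so they do not show that the level was unchanged. The share of lower scores near the members was thus close to that of all shared peaks. Of the 13 peaks with H3K4me3, 3 scored lower (interval 8.18 to 50.3%), 10 were equal and 0 were higher, against 35.4%, 58.5% and 6.18% of all such peaks. Of the 10 without H3K4me3, 6 scored lower, 3 were equal and 1 was higher, and their median score was 78.5 in hypoxia and 68 in normoxia, against 86 and 83 for all such peaks. The interval of the share of lower scores without H3K4me3, 31.3 to 83.2%, held the 44.3% of all such peaks.

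**Figure D2:**
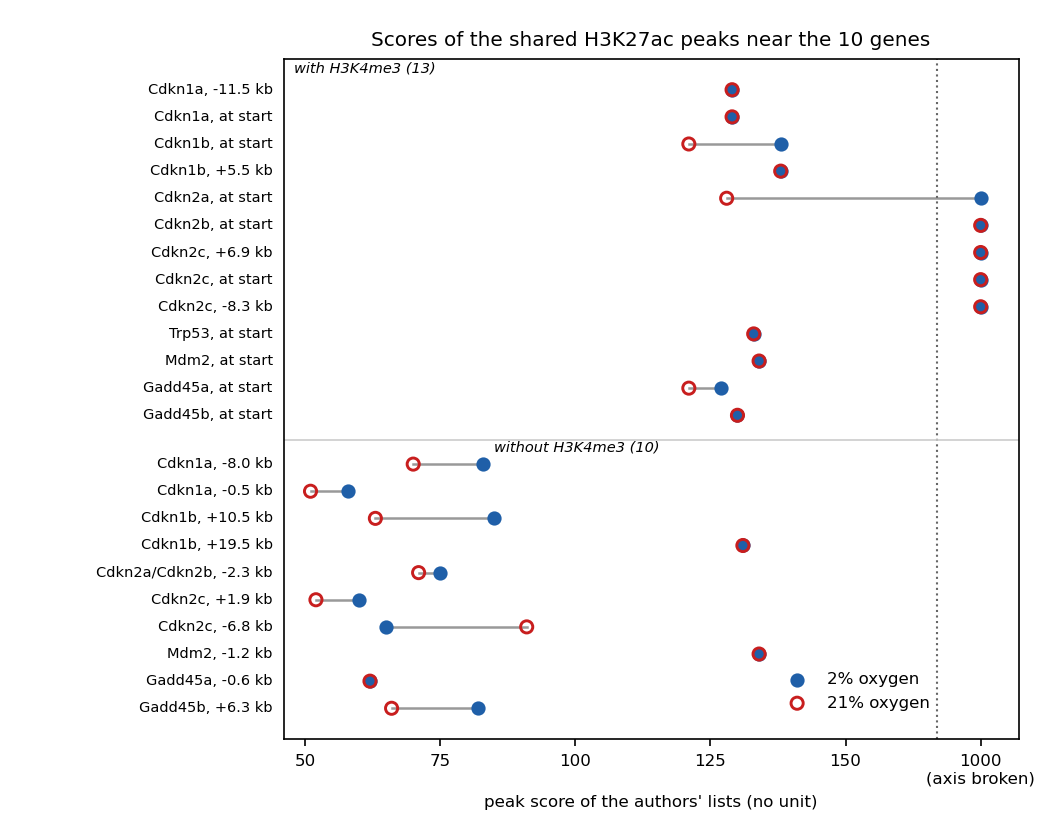
Scores (no unit) of the 23 shared H3K27ac peaks near the 10 genes at 2% oxygen (filled) and 21% oxygen (open), each line joining the same peak, labelled by gene and distance to its start in kb; the axis is broken between 160 and 1000. Of the 13 peaks with H3K4me3, 10 have equal scores, and of the 10 without it, 6 score lower at 21% oxygen.

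Since scores have no stated unit, they were also ranked within each list. A percentile lower in normoxia by at least 10 points was found at 4 of 23 peaks near members, where 15.4% of all shared peaks had it. These were the Arf start (22.0 points), the Cdkn1b start (14.3), the Lockd segment (17.6) and the segment beside the Gadd45b hypoxia-only peak (11.6). A percentile higher in normoxia by at least 10 points was found at 1 of 23, the peak beside the Faf1 start, where 7.73% of all shared peaks had it. Ranked within the chromosome, 6 of 23 peaks were lower in normoxia by at least 10 points (26.1%, interval 12.5 to 46.5%), where 16.3% of all shared peaks were. The Cdkn1b start then moved by 35.3 points and the Arf start by 18.0, and the Gadd45a start (13.4) and the Cdkn2c gene body (10.4) were added. This ranking was chosen after the values were seen, and the order of the peaks depends on it. Equal scores gave percentile differences of up to -5.54 points, since the lists differ in their overall scores. The counts thus lay near the background, which their intervals held.

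The extent of acetylation was compared with other genes. H3K27ac covered a median of 29.4% of the members' windows in hypoxia and 28.3% in normoxia, and 8 of 10 members had the same cover at both levels. Since a longer gene has a longer window, the comparison was made with the 5825 coding genes that had H3K4me3 at a start and were no longer than Mdm2 (21884 bp). Their median was 8.38%. Against these genes Cdkn1b was at percentile 97.2, Cdkn2b at 93.2, Cdkn2c at 89.6, Gadd45b at 88.1, Cdkn2a at 87.3 and Cdkn1a at 85.1. Mdm2 was at 77 and Gadd45a at 72.2. Trp53, at 53.3, was near the middle, and Cdkn1c, with 0%, was at 10.7. Cdkn2a and Cdkn2b count the same 18500 bp. Cover also includes peaks at the starts of neighbouring genes in the window, such as Lockd, Faf1 and Trp53cor1, as it does for the comparison genes. H3K4me3 covered a median of 17.4% of the members' windows and 10.6% of the windows of those genes, and here Cdkn1c (percentile 45.2), Mdm2 (40) and Gadd45a (30) lay below their median.

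**Figure D3:**
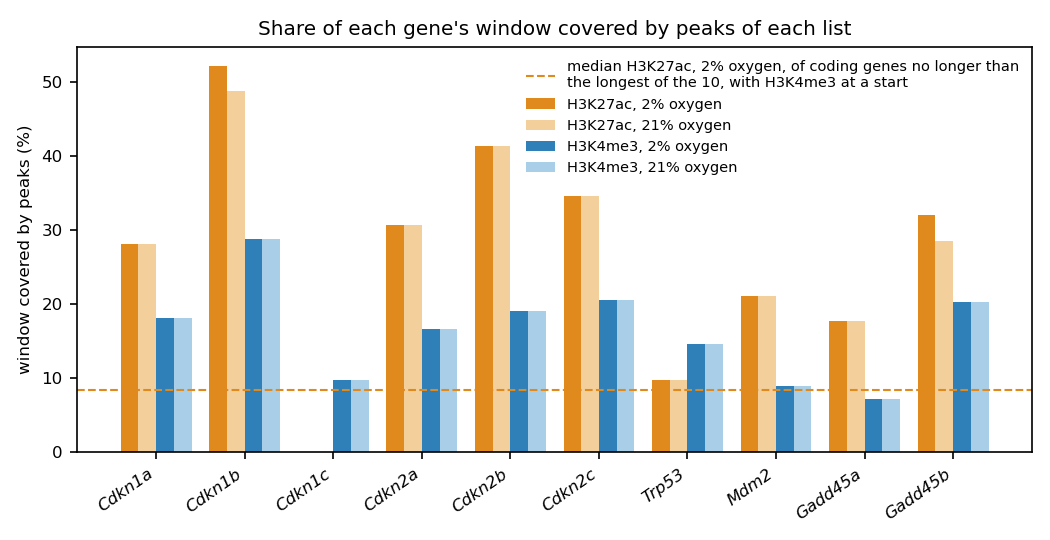
Percent of each gene's window (gene body and 20000 bp on each side) covered by peaks of each of the 4 lists. The dashed line marks the median H3K27ac cover in hypoxia of the 5825 coding genes with H3K4me3 at a start and no longer than the longest member, 8.38%; 9 of 10 genes lie above it and Cdkn1c is at 0.

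Touching segments were counted with calls at either oxygen level. At 7 of the 9 members with H3K27ac, the start segment of both marks touched a segment of H3K27ac alone (77.8%, interval 45.3 to 93.7%). This was so at Cdkn1a, Mdm2 and Gadd45a, for example, but not at Trp53 and Gadd45b. Among 7879 coding genes with a start in such a segment, 24.8% did so. At Cdkn1b the touching segment was the hypoxia-only one. With both segments called at both oxygen levels, the count was 6 of 9 (66.7%, interval 35.4 to 87.9%), against 22.8% of coding genes. This feature was chosen after the values were seen, and Cdkn2a and Cdkn2b touch the same segment. The lists share a segmentation, so H3K27ac that runs past an H3K4me3 peak is cut into touching segments. The count is thus not independent of the wide H3K27ac cover given above.

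The p53 response element, 2 adjacent half-sites each holding a core C, A or T, A or T, G, was searched on both strands in the members' windows, with at most 2 mismatches outside the cores. Of 9 distinct matches, 4 lay in H3K27ac peaks and 5 outside. They are shown because p53 is the regulator that links several of the members, and the capitals mark the cores. Each of the 4 in peaks had 1 mismatch. Strands are those of the member gene whose window was searched. The match labelled Trp53cor1 lay in the window of Cdkn1a, at -11940 bp from its nearest start. Its label names the gene whose start lies in the same segment.
Cdkn1a, chr17:29090928-29090947, plus strand, at -51 bp from the distal start: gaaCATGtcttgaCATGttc
Trp53cor1, chr17:29079039-29079058, plus strand: aggCAAGcccgggCAAGgcc
Cdkn2b, chr4:89308400-89308419, minus strand: agaCATGtccggtCTTGctc
Mdm2, chr10:117717736-117717755, minus strand, at -6997 bp from the start: aaaCATGtacaaaCATGtcc
The rate was 3.6 matches per 100 kb in the members' H3K27ac peaks, from 4 matches in 0.111 Mb, and 0.959 in all H3K27ac peaks. It was 1.96 in the members' whole windows and 0.656 over all chromosomes. Members were listed partly for p53 signalling, so their rate is not independent of that choice. The Mdm2 match lay in the segment of H3K27ac alone, and the others in segments of both marks. All 4 segments had equal H3K27ac scores at both oxygen levels. A match is a description of sequence and not a binding site.

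The other genes of the pathway were read from lists of 74 genes in 7 roles, written from general knowledge. H3K4me3 was called at a start in 71 (95.9%) and H3K27ac in 55 (74.3%), with the same counts in normoxia. H3K4me3 was called at each of 11 cyclin and CDK genes, 11 RB and E2F genes and 9 p53 regulators, and H3K27ac at 8, 7 and 7 of them. E2F genes without H3K27ac were E2f2, E2f6, E2f7 and E2f8, and cyclins without it were Ccne1, Ccna2 and Ccnb1. H3K27ac was also called at 5 of 7 Polycomb regulators of the Ink4 locus and at 1 of 2 other CDK inhibitors, all of which had H3K4me3. Of 22 p53 targets, each with H3K4me3, 17 had H3K27ac, and Pmaip1, Plk3, Tnfrsf10b, Perp and Pidd1 did not. Of 12 senescence-associated genes, 10 had it, and Il6, Ccl2 and Mmp3 lacked H3K4me3. Hypoxia-only H3K27ac peaks were found in the windows of 5 of the 74 genes (6.76%, against 4.7% of coding genes). Among coding genes with H3K27ac in the window, 8.55% had such a peak, so 6.76% was no excess over acetylated genes. The 5 genes were Ccnd3, Bbc3, Tnfrsf10b, Pidd1 and Hmgb1. Normoxia-only peaks were found near Phlda3 and Hmga2 (2.7%, against 1.15%). The peak near Ccnd3, which encodes cyclin D3, scored 52, and that near Bbc3, a p53 target of apoptosis, scored 51. Those near Tnfrsf10b, a death receptor gene, and Pidd1, a p53-induced death domain gene, scored 64 and 61, and that in Hmgb1, a chromatin protein gene, 51. The Tnfrsf10b and Pidd1 peaks lay outside the gene bodies, 34529 and 10476 bp from the starts, and the Pidd1 peak also carried H3K4me3 at both oxygen levels. The normoxia-only peaks near Phlda3 and in Hmga2, another chromatin protein gene, scored 51 and 50. All of these scores lay in the lower range of the lists, whose median H3K27ac scores were 111 in hypoxia and 102 in normoxia.

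**Figure D4:**
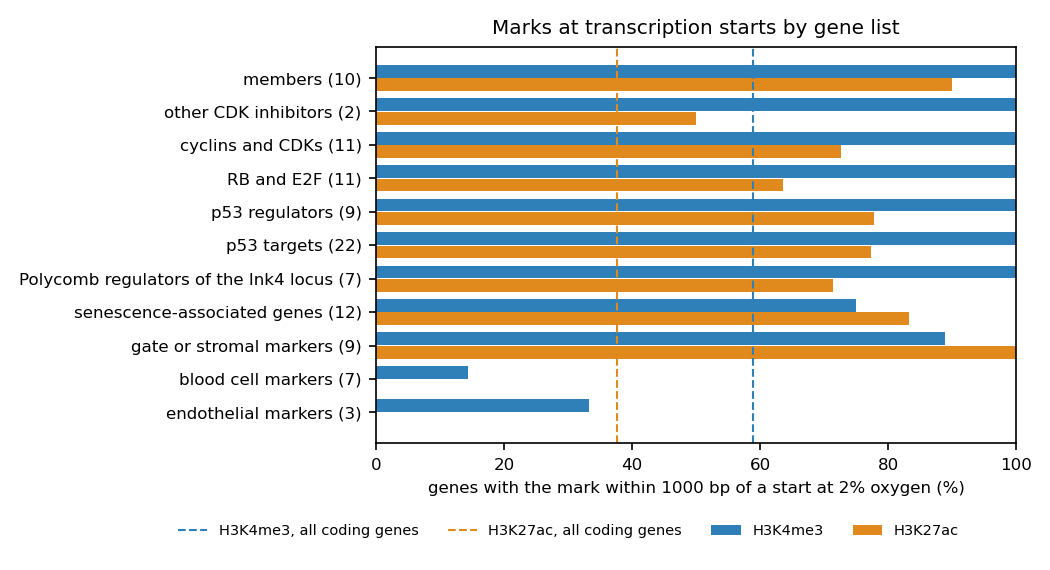
Percent of genes of each list with H3K4me3 (blue) or H3K27ac (orange) within 1000 bp of a start at 2% oxygen, with the number of genes in parentheses; dashed lines mark all coding genes, 58.9% for H3K4me3 and 37.6% for H3K27ac. H3K27ac stands at 90% of the 10 members and at 0% of the blood cell and endothelial markers.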

How the data were processed

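Per the labels and the study's methods, reads were mapped by the authors to mm10 using Bowtie2 and cleared of duplicates with Picard. Peaks came from chromstaR, a hidden Markov model fitted to compare hypoxia with normoxia. Versions are not given in the sources used here. The deposited lists hold, for each peak, its position and a score, the authors' value with no stated definition. The lists are views of a joint segmentation on a 500 bp grid, so their intervals are identical where they overlap and their boundaries are not independent. Both libraries of a group entered each list, so no value per library, depth or input signal was analysed here.

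Peaks were joined to genes with GENCODE M21 basic on the same build. A hypoxia-only peak had no base in common with the normoxia list of its mark, and the reverse held for normoxia-only peaks, and both kinds are called condition-specific. Shares carry 95% Wilson intervals, and a count of 0 allows 3 counts of the total. Python 3.11.15, pandas 2.3.3, numpy 2.4.6, scipy 1.17.1 and matplotlib 3.10.9 were used, and the overlap code was tested on simulated data. The members and gene lists were chosen with earlier results of these data known. Genes named by rule were the 10 members, genes of the pathway and marker lists with a condition-specific H3K27ac peak in the window, and neighbours whose start lies in a peak of a member's window. Listed genes named for lacking a mark at the start, and the other markers named, were picked once their values were known. The labels and the study's methods place the sort on day 12 of culture, and a figure legend of the study gives an earlier day. A result for H3K4me3 at a blood cell marker is not reported here.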

Additional observations from a re-analysis of the deposited data

How the results depend on the processing

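No paired analysis was possible because each list pools both libraries of its group, and leaving out a replicate was not possible for the same reason. Of 52 recomputed values, 22 were identical to the reported one. In all, 42 were within 1.5 times the reported count, or inside the interval of a share, and 10 were not. The 2 hypoxia-only H3K27ac peaks near members, and the 2 members with a condition-specific peak, both became 0 without the lowest-scoring 25% of peaks, and 0 when a specific peak had to lie over 1000 bp from the other list. With 50000 bp on each side, or by nearest coding start, Gadd45a joined Cdkn1b and Gadd45b through a peak 38595 bp from its start, which made 3. The share of coding genes with a condition-specific peak was 5.81%, and became 3.8% with 5000 bp on each side, 9.31% with 50000 bp, 1.24% without the lowest-scoring peaks, 2.94% with no other peak within 1000 bp and 3.46% by nearest start. The 1 shared peak ranked higher in normoxia became 0 with 5000 bp on each side. The peaks ranked lower in normoxia were 4, and 6 when ranked within the chromosome, an alternative chosen after seeing the data, against 15.4% and 16.3% of all shared peaks. The cause of these changes was not tested. The lists have no replicate, so no difference between oxygen levels near these genes is tested against the spread between cultures.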
